A study of Mus musculus with 6 samples.

Results

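Astrocytes at rest clear transmitter, buffer ions and water, couple to each other through gap junctions and supply neurons with metabolites. The 33 genes described here encode proteins for that work: transporters, channels, junction proteins, enzymes, secreted factors and receptors. They were taken by symbol from the array's annotation, out of 18193 named genes. All 33 were found, on 73 probe sets, and the brightest probe set stands for its gene. Each of these passed the filter on dim probe sets, as did 64 of the 73. The 33 genes carry the name homeostatic because they mark astrocytes in uninjured tissue.

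RNA came from the spinal cord at the first lumbar level (L1) of male SCID mice, which lack mature T and B lymphocytes in all 3 groups. Mice entered the study aged 9 weeks, and cord was taken at 15 weeks of age, 6 weeks into the models. In the N-inv group cells of Capan-1, an established line from human pancreatic cancer, were injected inside the left sciatic nerve. The controls were SC, a subcutaneous model, and PBS, named for the saline buffer, and the labels give no further detail of either. Since 1 cancer cell line was used, N-inv stands for that line only. Each group had 2 arrays, and the labels do not say that a group's arrays came from separate animals. The p-values therefore measure only the spread between these arrays, which may be technical. The labels do not say whether cord of 1 side or of both sides was taken.

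As background, glutamate released by neurons is taken up mainly by Slc1a2 and Slc1a3 and turned into glutamine by Glul. Water and potassium leave along the astrocyte's vessel-facing endfeet, where Aqp4, Mlc1 and Hepacam are concentrated. Gja1 and Gjb6 join astrocytes into a network through which ions and small metabolites spread. After nerve injury astrocytes of the dorsal horn change shape and raise Gfap, and the homeostatic genes are commonly read beside it.

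The SC arrays stood apart from the rest. Their correlation with each other was 0.963, against 0.982 within PBS and 0.983 within N-inv. RNA quality was read from Actb control probes, whose 3' to 5' signal ratio was 3.81 and 4.71 in the SC arrays and 3.05 to 3.57 elsewhere. The same ratio of Gapdh was also highest in the SC arrays, at 3.522 and 3.380 against 2.82 to 3.378 elsewhere. For SC replicate 2 the gap to N-inv replicate 2 was very narrow. Xist, which is made from the inactive X chromosome of female cells, measured 13040 in the array labelled SC replicate 2 and 138.3 to 228.1 in the other 5, although all mice are labelled male. The Y-linked gene Eif2s3y was also highest in that array, at 3147, against 1342 in SC replicate 1 and 2365 to 2647 in the other 4. Values without each SC array are therefore given beside the SC results. Markers of cord tissue were present in all 6 arrays, with the neuronal gene Rbfox3 at 14930 to 16330 and the myelin gene Mbp at 69490 to 83560. The astrocyte genes Slc1a2, Gja1, Glul, Aldoc and Aqp4 were all bright, with 17090, for Aqp4 in SC replicate 1, as their lowest value. In whole tissue, fewer astrocytes and less RNA per astrocyte cannot be told apart.

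In N-inv against PBS the 33 genes as a group lay close to where all genes lay. Their median log2 difference was 0.08, against 0.04 over all 12626 named genes tested, and 23 of the 33 were higher, as were 7571 of all genes. Values are intensities scaled to a common array median, and differences are taken on log2(intensity + 25.6). With quantile normalization 19 were higher and the median was 0.02. Limma called 0 of the 33, with a smallest adjusted p of 1.0, as it called 0.0% of all genes. At an unadjusted p under 0.05 stood 1 member, Slc14a1, where 3.33% of all genes did. With an intensity trend in the variance there were 5, all higher in N-inv, or 15.2% of the 33 against 3.22% of all genes. The arrays did not overlap for 11 genes higher in N-inv (33.3%) and 7 lower (21.2%), and over all genes these shares were 25.2% and 12.6%. As deposited the counts were 10 higher and 8 lower, and with quantile normalization 8 higher and 9 lower.

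Against SC the differences were wider. The median in N-inv against SC was 0.12, against 0.06 over all genes, with 22 genes higher and 11 lower. Limma called 0 members, with a smallest adjusted p of 0.408, where it called 0.0% of all genes. At an unadjusted p under 0.05 stood 9 members, or 27.3% of the 33, against 8.16% of all genes, and 8 of the 9 were higher in N-inv. The arrays did not overlap for 11 genes higher in N-inv and 3 lower, where all genes gave 25.4% and 11.3%. These counts were 13 and 8 as deposited and 15 and 6 with quantile normalization, and under both of these scalings the members at an unadjusted p under 0.05 were 7 higher and 3 lower. Without SC replicate 1 the median was -0.04, with 15 genes higher, and 10 had an unadjusted p under 0.05, 5 in each direction, which is 30.3% against 14.6% of all genes. Without SC replicate 2 it was 0.32, with 27 higher, and 12 had such a p, all of them higher in N-inv, which is 36.4% against 15.3% of all genes. In these fits SC is 1 array, so the spread comes from the other groups alone and the lone array is assumed to vary as they do. Over all genes the medians without these arrays were -0.04 and 0.15.

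In SC against PBS the median was -0.07, against -0.02 over all genes, with 14 genes higher and 19 lower. Limma called 0 members, with a smallest adjusted p of 0.518, as it called 0.0% of all genes, and 4 had an unadjusted p under 0.05 where 6.73% of all genes did. The arrays did not overlap for 6 genes higher and 12 lower in SC, against 13.7% and 19.8% of all genes. As deposited 9 were higher and 13 lower in this way, and with quantile normalization 4 and 14. Without SC replicate 1 the median was 0.10, and without SC replicate 2 it was -0.28. Over all genes these medians were 0.08 and -0.11. When scaled to a common median, the SC arrays pulled in opposite directions. Of the 33 genes, 18 were lowest of all arrays in SC replicate 1, and 15 were highest in SC replicate 2. Over all genes those shares were 39.6% and 34.4%. As deposited, without scaling to a common median, the counts were 16 and 8. With quantile normalization they were 12 and 7, and 7 genes were lowest in SC replicate 2. The opposite pull therefore depended on the scaling, and shares over all genes were not taken under these 2 scalings. N-inv and SC were compared with the same PBS arrays, so those differences share their controls.

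**Figure D1:**
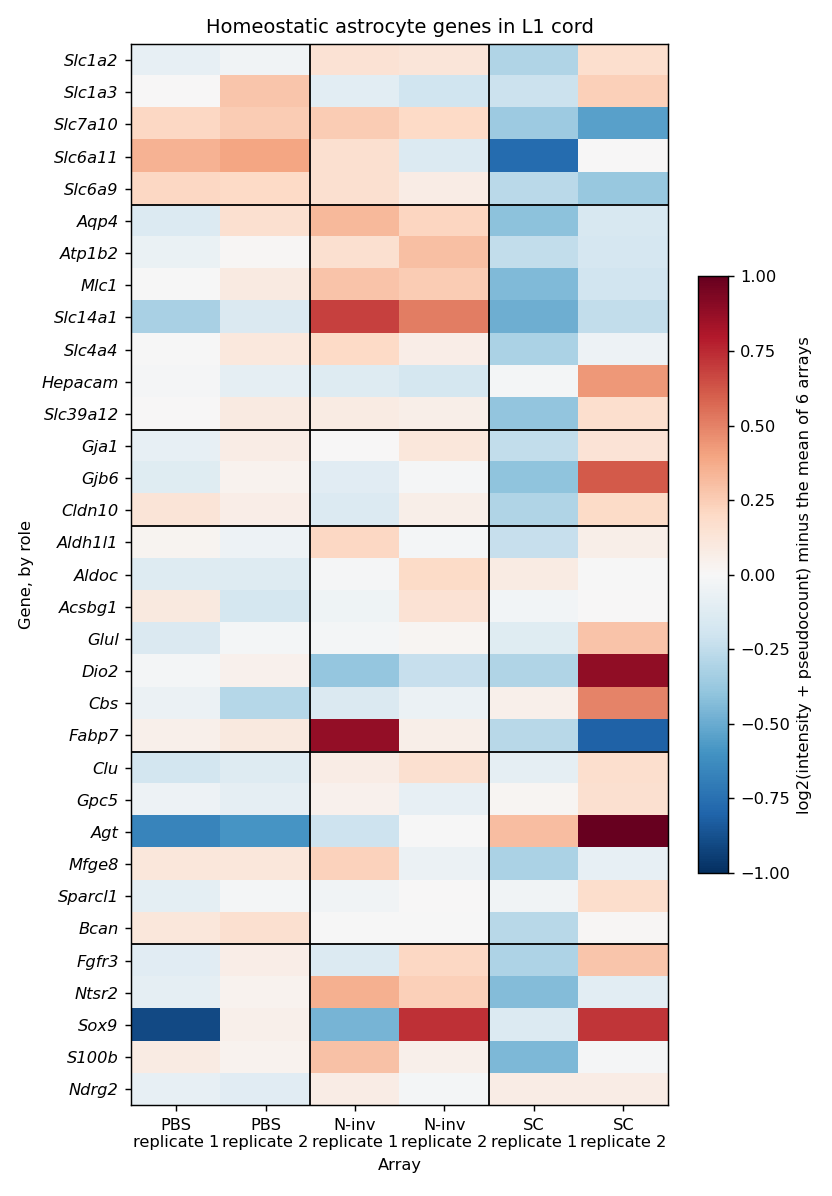
Each row is 1 of the 33 genes, grouped by role, and each column is 1 array. The colour gives log2(intensity + 25.6) minus the gene's mean over 6 arrays, in log2 units, clipped at -1 and 1. SC replicate 1 is mostly blue, SC replicate 2 mixes deep red (Agt, Dio2) with blue (Fabp7, Slc7a10), and Sox9 differs within the PBS arrays and, with Fabp7, within the N-inv arrays.

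**Figure D2:**
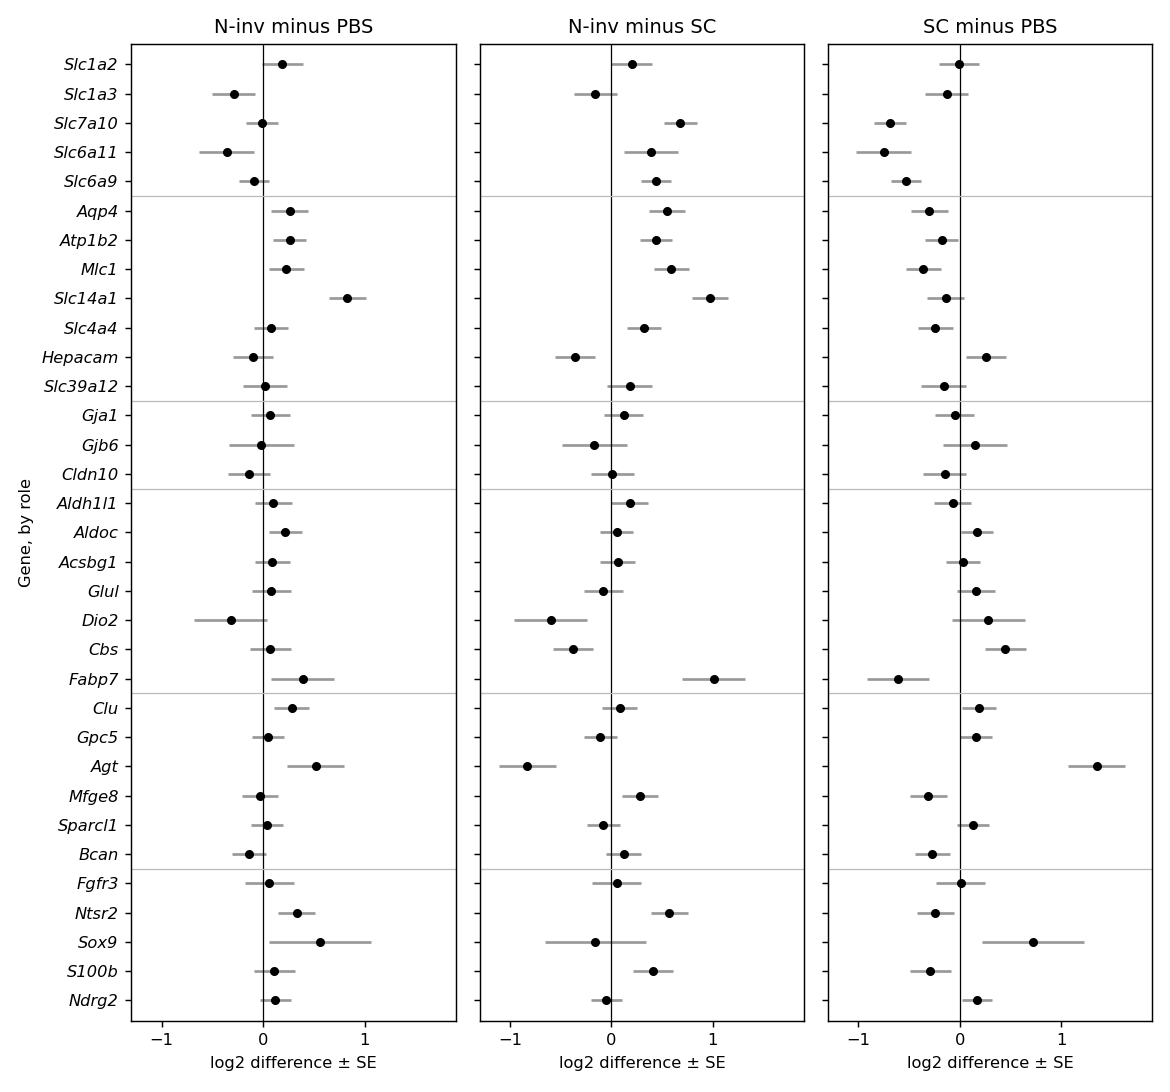
Points are the fitted log2 differences of the 33 genes in the 3 comparisons, with bars of 1 SE on each side. Slc14a1 stands furthest right in N-inv minus PBS at 0.83, Fabp7 and Slc14a1 in N-inv minus SC at 1.01 and 0.97, and Agt in SC minus PBS at 1.35.

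Promoters are shown for 4 members, since they stand for the main patterns: Agt for values highest in SC, Slc7a10 for values lowest in SC, and Mlc1 and Ntsr2 for values highest in N-inv and lowest in SC. They are the 250 bases before the annotated start, 5′ to 3′ on the gene's strand, from RefSeq on GRCm38.p6. Capitals mark matches, on either strand, to motifs of STAT, glucocorticoid receptor, NFI and SOX factors and to the TATA box.
Agt, chr8:124569707-124569956, minus strand: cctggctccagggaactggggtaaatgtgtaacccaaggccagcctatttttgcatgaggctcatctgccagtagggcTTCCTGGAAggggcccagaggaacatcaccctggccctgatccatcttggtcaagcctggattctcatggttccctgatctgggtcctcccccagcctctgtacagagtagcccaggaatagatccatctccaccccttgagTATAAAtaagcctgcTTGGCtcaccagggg
Slc7a10, chr7:35186135-35186384, plus strand: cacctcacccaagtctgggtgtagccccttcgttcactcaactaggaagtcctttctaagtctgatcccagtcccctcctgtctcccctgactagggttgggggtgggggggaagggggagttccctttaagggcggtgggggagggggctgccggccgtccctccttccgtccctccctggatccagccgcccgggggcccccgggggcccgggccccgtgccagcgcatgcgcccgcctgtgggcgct
Mlc1, chr15:88978554-88978803, minus strand: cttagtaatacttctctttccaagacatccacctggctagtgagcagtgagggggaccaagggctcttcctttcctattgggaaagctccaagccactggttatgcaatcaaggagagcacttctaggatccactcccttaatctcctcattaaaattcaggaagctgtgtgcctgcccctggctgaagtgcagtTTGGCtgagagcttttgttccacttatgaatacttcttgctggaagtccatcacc
Ntsr2, chr12:16653220-16653469, plus strand: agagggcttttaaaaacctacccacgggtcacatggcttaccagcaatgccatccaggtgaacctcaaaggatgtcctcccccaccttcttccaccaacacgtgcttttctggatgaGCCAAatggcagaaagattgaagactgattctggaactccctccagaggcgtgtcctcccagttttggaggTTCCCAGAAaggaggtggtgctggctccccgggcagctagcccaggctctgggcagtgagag

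Of the 33 genes, 27 matched an entry, with 35 promoters among them, out of 32851 in all. The STAT palindrome, searched as TTCNNNGAA, was in 5 of the 35, against 7.02% of all promoters, and in those of Agt (starting at position -172 from the start site) and Ntsr2 (at -62). The NFI core, searched as TTGGC, was in 18 of the 35, against 41.5% of all, and in those of Agt (at -15), Mlc1 (at -55) and Ntsr2 (at -133). The TATA box, searched as TATAAA, was in 6 of the 35, against 12.4% of all, and in that of Agt at -30. The core of the glucocorticoid receptor site, searched as AGAACA, was in 3 of the 35, against 16.1% of all promoters. The core of SOX sites, searched as ACAAT, was in 3 of the 35, against 27.7% of all promoters. The motifs share no letters where they matched in these 4 windows, and the Slc7a10 window held none of the 5. These matches describe letters in a window, and no binding was measured.

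The genes of water, ion, urea and zinc handling held 4 of the 5 members whose N-inv arrays both lay above the other 4 arrays. Of 7, 6 were higher in N-inv than in PBS, with a median log2 difference of 0.23, and 6 were higher than in SC, with a median of 0.44. As deposited or with quantile normalization 5 were higher than in PBS and 6 than in SC. Against SC 4 of them had an unadjusted p under 0.05, where 8.16% of all genes did. Slc14a1, the urea transporter UT-B, measured 1727 and 1535 in the N-inv arrays, 848.6 and 964.4 in PBS, and 752.9 and 895.7 in SC. Both N-inv arrays lay far above the other 4, which overlapped each other. Its log2 difference was 0.83 ± 0.18 (SE) from PBS (adjusted p = 1.0 in limma) and 0.97 ± 0.18 from SC (adjusted p = 0.408). Its dimmer probe set measured 968.4 and 921.7 in the N-inv arrays, 560.0 and 591.2 in PBS, and 403.2 and 328.6 in SC. On that probe set the difference from SC was 1.32 ± 0.17 (SE), and limma's adjusted p was 0.365, the smallest of any member probe set. Slc14a1 therefore gave the same direction on both of its probe sets in all 3 comparisons.

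Mlc1, a membrane protein of perivascular endfeet that takes part in volume regulation, measured 8112 and 7948 in the N-inv arrays, 6639 and 7097 in PBS, and 4880 and 5834 in SC. The groups did not overlap, with N-inv highest and SC lowest. The difference from SC was 0.59 ± 0.17 (SE), and limma's adjusted p was 0.464. Aqp4, the water channel of endfeet, followed the same order, at 28370 and 26350 in the N-inv arrays, 20650 and 25330 in PBS, and 17090 and 20290 in SC. Only narrow gaps divided the groups here, and with quantile normalization the N-inv arrays of Aqp4 no longer both lay above the other 4. Its second probe set gave 4601 and 4334 in the N-inv arrays, 3155 and 4303 in PBS, and 3077 and 2078 in SC. On the third and dimmest the N-inv arrays, at 438.1 and 429.4, lay between the PBS arrays, at 378.3 and 469.1. The SC arrays of that probe set, at 426.7 and 386.8, did too. Atp1b2, a beta subunit of the sodium pump, measured 35480 and 39060 in the N-inv arrays, 30300 and 32030 in PBS, and 26790 and 28210 in SC. A much dimmer probe set of Atp1b2 went the other way, at 301.9 and 367.2 in the N-inv arrays against 461.9 and 723.8 in PBS.

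Hepacam, the adhesion protein that brings Mlc1 to cell contacts, was the 1 member with both N-inv arrays below the other 4 when arrays were scaled to a common median. It measured 2370 and 2294 in the N-inv arrays, 2567 and 2434 in PBS, and 2555 and 3516 in SC, so the gap to PBS was narrow. As deposited and with quantile normalization Slc1a3 and Dio2 joined it. Its second probe set did not show this, at 946.3 and 790.7 in the N-inv arrays against 1040 and 733.3 in PBS. Above the other 4 arrays stood 5 members, Slc14a1, Mlc1, Aqp4, Atp1b2 and the receptor gene Ntsr2. These are 15.2% of the 33, and over all genes 10.8% lay above and 3.61% below in this way. For 4 of the 5, all but Slc14a1, both SC arrays also lay below both PBS arrays, which is 12.1% of the 33 genes and 3.51% of all genes. The bicarbonate cotransporter gene Slc4a4 measured 21880 and 19940 in the N-inv arrays, 19010 and 20490 in PBS, and 15290 and 18340 in SC. Another of its probe sets, at 7037 and 7116 in the N-inv arrays against 4312 and 4789 in SC, differed by 0.64 ± 0.16 (SE) and limma's adjusted p was 0.449. A dim probe set of Slc4a4 ran the other way, at 448.3 and 441.9 in SC against 300.1 and 272.5 in PBS. The zinc transporter gene Slc39a12 lay between 10430 and 11130 in N-inv and PBS, and measured 7911 and 11700 in SC.

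**Figure D3:**
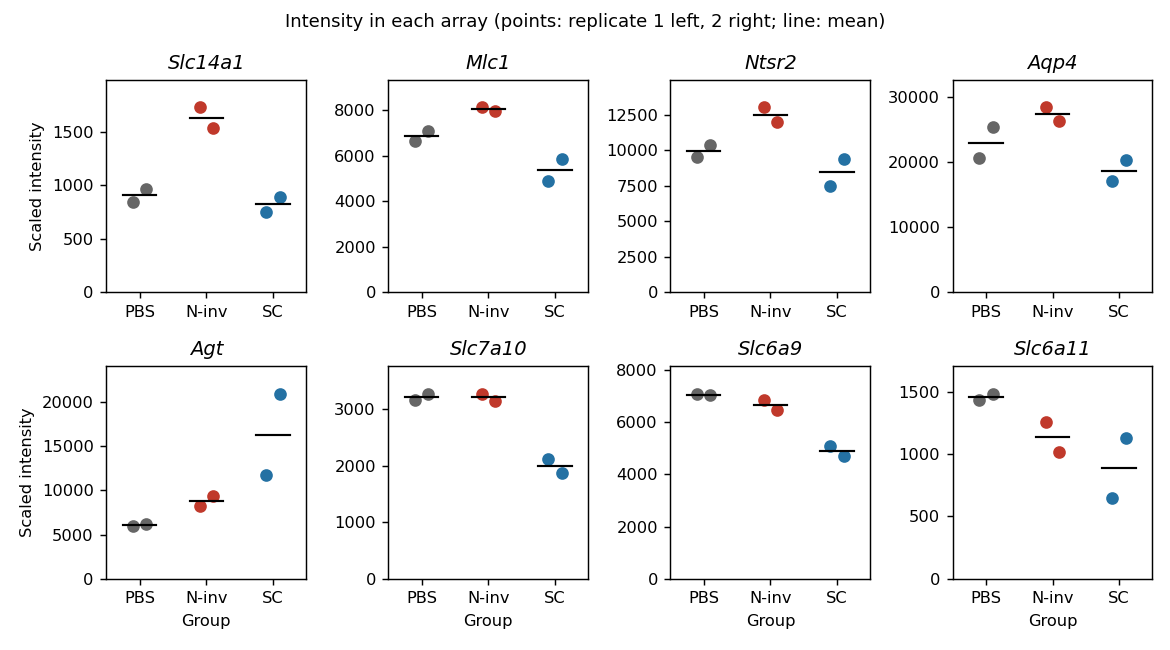
Scaled intensity of 8 genes in each array, on axes that start at 0, with replicate 1 to the left and replicate 2 to the right in each group and a line at the mean of 2 arrays. Slc14a1, Mlc1, Ntsr2 and Aqp4 are highest in both N-inv arrays, Agt is lowest in PBS and highest in SC, and Slc7a10 and Slc6a9 are lowest in both SC arrays.

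All 5 transporters of transmitters and related amino acids were lower in SC than in PBS by their brightest probe sets. The median log2 difference was -0.53, though that of Slc1a2 was only -0.01. As deposited 4 were lower, and without SC replicate 1 there were 3, with a median of -0.37. For 3 of the 5 the SC arrays lay wholly below the PBS arrays, as for 19.8% of all genes. Oligodendrocyte and myelin markers were also lower in SC, and their part in this was not tested. Slc7a10, which carries serine and glycine across the astrocyte membrane, measured 2128 and 1874 in SC, 3176 and 3278 in PBS, and 3273 and 3155 in N-inv. Its N-inv and PBS arrays overlapped and both SC arrays lay below them. The differences were -0.69 ± 0.16 (SE) in SC against PBS (adjusted p = 0.518 in limma) and 0.68 ± 0.16 in N-inv against SC (adjusted p = 0.449). Without either SC array Slc7a10 still differed from PBS by -0.78 or -0.59.

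Slc6a9, the glycine transporter GlyT1, measured 5093 and 4715 in SC, 7092 and 7036 in PBS, and 6847 and 6471 in N-inv. Its difference from PBS was -0.53 ± 0.15 (SE) in SC, and limma's adjusted p was 0.538. The dimmer probe set of Slc6a9 gave 1168 and 1150 in SC, 1545 and 1252 in PBS, and 1091 and 1076 in the N-inv arrays, so on it N-inv was lowest. Slc6a11, the GABA transporter GAT-3, measured 1434 and 1484 in PBS, 1258 and 1018 in the N-inv arrays, and 647.4 and 1126 in SC. PBS was highest, and the N-inv and SC arrays overlapped. The difference of Slc6a11 in SC against PBS, -0.75 ± 0.27 (SE, adjusted p = 0.601 in limma), was -0.37 without SC replicate 1 and -1.14 without SC replicate 2.

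For the glutamate transporter genes the SC and PBS arrays overlapped on the brightest probe sets. Slc1a2 (GLT-1) measured 39410 and 38790 in the N-inv arrays, 33730 and 34810 in PBS, and 28960 and 40060 in SC, with the SC arrays on both sides of all others. Its log2 difference was 0.19 ± 0.20 (SE) in N-inv against PBS, and of its 3 tested probe sets 2 were higher and 1 lower. Slc1a3 (GLAST) measured 1753 and 1636 in the N-inv arrays, 1884 and 2295 in PBS, and 1621 and 2223 in SC. Slc1a3 was read by 4 tested probe sets, of which 2 were higher and 2 lower in N-inv than in PBS, so no direction is given for it. In SC against PBS 2 were also higher and 2 lower. A dimmer one gave 1368 and 1402 in SC against 1201 and 1177 in PBS. Another gave 597.4 and 567.9 in SC against 714.6 and 965.0 in PBS.

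By their brightest probe sets the junction genes lay close together in PBS and N-inv. Gja1, which encodes connexin 43, measured 34320 and 37070 in the N-inv arrays, 32210 and 36000 in PBS, and 28770 and 37590 in SC. Of its 6 tested probe sets 4 were higher and 2 lower in N-inv than in PBS. A dim probe set of Gja1 measured 162.3 and 562.9 in the N-inv arrays, 881.2 and 617.6 in PBS, and 566.8 and 1110 in SC, so that both N-inv arrays were lowest. Its log2 difference was -1.20 ± 0.56 (SE) from PBS (adjusted p = 1.0 in limma) and -1.3 ± 0.56 from SC (adjusted p = 0.566), against 0.07 and 0.12 for the brightest. Gjb6, which encodes connexin 30, measured 8899 and 9514 in the N-inv arrays and 8840 and 9827 in PBS, but 7247 and 14700 in SC. The SC arrays of Gjb6 thus lay on both sides of all others. The claudin gene Cldn10 measured 2116 and 2430 in the N-inv arrays, 2550 and 2445 in PBS, and 1894 and 2663 in SC. By the brightest probe sets the log2 differences of these 3 genes lay between -0.17 and 0.15 in all comparisons, and the arrays of N-inv and SC overlapped for each.

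Among enzymes and lipid binding proteins, 6 of 7 genes were higher in N-inv than in PBS, with a median of 0.09, and 5 were with quantile normalization. Glul, glutamine synthetase, measured 34200 and 35050 in the N-inv arrays, 31320 and 34190 in PBS, and 31850 and 42270 in SC. Aldh1l1, a folate enzyme used as an astrocyte marker, measured 3232 and 2773 in the N-inv arrays, 2860 and 2711 in PBS, and 2392 and 2924 in SC. On the brightest probe set both N-inv arrays of Glul lay above both PBS arrays, but only just, and its SC arrays overlapped both groups. As deposited the SC arrays of Glul lay above both, and with quantile normalization none of its groups were apart. No groups of Aldh1l1 were apart under any scaling. Aldoc, the brain form of aldolase, measured 54560 and 62800 in the N-inv arrays, 50290 and 50240 in PBS, and 58380 and 54990 in SC. Its dimmer probe set was 3538 and 3810 in the N-inv arrays, 2523 and 2750 in PBS, and 2675 and 4099 in SC, a log2 difference of 0.48 in N-inv against PBS where the bright one gave 0.22. The fatty acid ligase gene Acsbg1 lay between 2890 and 3627 in all arrays.

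Fabp7, a fatty acid binding protein of radial glia and astrocytes, measured 9483 and 5377 in the N-inv arrays, 5340 and 5521 in PBS, and 4252 and 2942 in SC. The high N-inv value came from replicate 1 alone, and replicate 2 lay inside the PBS range. The difference from SC was 1.01 ± 0.31 (SE), and limma's adjusted p was 0.464. Without N-inv replicate 1 it was 0.60, and without N-inv replicate 2 it was 1.42. Dio2, the deiodinase that makes active thyroid hormone, measured 1190 and 1328 in the N-inv arrays, 1545 and 1610 in PBS, and 1265 and 2912 in SC. On its second probe set Dio2 measured 123.7 and 101.0 in the N-inv arrays against 243.3 and 216.4 in PBS, a difference of -0.89 (adjusted p = 1.0 in limma). Both N-inv arrays of that probe set lay below the filter cutoff of 155.2. The cystathionine synthase gene Cbs measured 645.6 and 686.9 in the N-inv arrays, 684.7 and 583.6 in PBS, and 741.7 and 1023 in SC. Its difference of 0.45 ± 0.20 (SE) in SC against PBS (adjusted p = 0.668 in limma) was 0.22 without SC replicate 2. A dimmer probe set of Cbs went the other way, at 412.7 and 444.7 in SC against 452.9 and 496.4 in PBS.

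Agt had the widest difference among the members' brightest probe sets with all 6 arrays, though without SC replicate 2 that of Slc6a11 was wider (-1.14 against 0.93 in SC against PBS). It encodes angiotensinogen, which astrocytes make in the brain and cord and which the liver makes for the blood. It measured 5971 and 6250 in PBS, 8186 and 9417 in the N-inv arrays, and 11700 and 20940 in SC. No arrays overlapped between groups, with SC highest and PBS lowest. The log2 difference was 1.35 ± 0.28 (SE) in SC against PBS (adjusted p = 0.518 in limma), 0.52 ± 0.28 in N-inv against PBS (adjusted p = 1.0) and -0.83 ± 0.28 in N-inv against SC (adjusted p = 0.488). Without SC replicate 2 the difference of Agt in SC against PBS was 0.93, and without SC replicate 1 it was 1.77.

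The other secreted and matrix genes differed by less. Clu, the chaperone clusterin, measured 38700 and 41020 in the N-inv arrays, 32230 and 33560 in PBS, and 34380 and 41160 in SC. All 4 probe sets of Clu were higher in N-inv than in PBS, by 0.19 to 0.28 on the log2 scale. Bcan, the matrix proteoglycan brevican, measured 12380 and 12390 in the N-inv arrays, 13440 and 13910 in PBS, and 10280 and 12550 in SC, so PBS was highest. Mfge8, a bridging protein for phagocytosis, measured 1498 and 1766 in SC, below 2019 and 2022 in PBS and 2200 and 1790 in N-inv. The matricellular gene Sparcl1 lay between 49100 and 59060, and the proteoglycan gene Gpc5 between 3538 and 4204, in all 6 arrays.

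Ntsr2, a neurotensin receptor found on astrocytes, measured 13000 and 11980 in the N-inv arrays, 9498 and 10390 in PBS, and 7477 and 9407 in SC. Its groups kept the order of Mlc1, with a difference of 0.57 ± 0.18 (SE) in N-inv against SC and an adjusted p of 0.473 in limma. S100b, a calcium binding protein, measured 27160 and 22900 in the N-inv arrays, 23380 and 22700 in PBS, and 16150 and 21880 in SC. On a dimmer probe set of S100b the N-inv arrays were below PBS, at 2864 and 2459 against 3018 and 2870. The growth factor receptor gene Fgfr3 measured 6028 and 7641 in the N-inv arrays, 6100 and 6939 in PBS, and 5346 and 8031 in SC. Ndrg2, a cytoplasmic protein of astrocytes, lay between 21870 and 24930 in all arrays. Sox9, the transcription factor that marks astrocyte nuclei, gave 404.3 and 960.9 in the N-inv arrays, 292.4 and 588.3 in PBS, and 515.0 and 950.2 in SC. Replicates of Sox9 differed more than groups did, and its second probe set, at 383.4 and 466.1 in SC against 558.6 and 613.2 in PBS, went the other way. Among the 19 members with at least 2 tested probe sets, all probe sets pointed one way in 9 genes for N-inv against PBS, 12 for N-inv against SC and 10 for SC against PBS.

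A second list of 46 astrocyte genes that are not among the 33 was read beside them, with 44 tested. In N-inv against PBS 37 of the 44 were higher, with a median of 0.15, and limma called 0. Of the 44, 2 (4.55%) had an unadjusted p under 0.05, where 3.33% of all genes did. Itih3, a heavy chain of a hyaluronan binding inhibitor, measured 15130 and 15800 in the N-inv arrays and 14650 and 15930 in SC, against 10260 and 9381 in PBS. The N-inv and SC arrays of Itih3 lay above PBS and overlapped each other. The cytochrome gene Cyp4f14 measured 503.9 and 502.8 in the N-inv arrays, 351.2 and 391.2 in PBS, and 383.2 and 327.6 in SC. Bmpr1b, a BMP receptor, measured 1598 and 1478 in the N-inv arrays and 1708 and 1434 in SC, against 1074 and 1264 in PBS.

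In N-inv against SC 31 of the 44 were higher, with a median of 0.17. An unadjusted p under 0.05 was reached by 9 (20.5%), 8 of them higher, against 8.16% of all genes. As deposited 3 (6.82%) reached it, against 8.24% of all genes, and with quantile normalization 6 (13.6%), against 8.29%. Without SC replicate 1 the median was 0.03, and without SC replicate 2 it was 0.32. Gpr37l1, an orphan receptor of astrocytes, measured 20380 and 19340 in the N-inv arrays, 16800 and 15230 in PBS, and 12010 and 9337 in SC, the order also seen for Mlc1. Etnppl, an enzyme that breaks down phosphoethanolamine, measured 7109 and 8864 in SC, against 5814 and 5047 in the N-inv arrays and 5549 and 5165 in PBS. In SC against PBS 18 were higher and 26 lower, with 7 (15.9%) at an unadjusted p under 0.05 against 6.73% of all genes. The median was -0.05. That median was 0.16 without SC replicate 1 and -0.23 without SC replicate 2. Slc13a3, a dicarboxylate transporter, measured 1099 and 684.2 in SC, 1961 and 1974 in PBS, and 1729 and 1189 in N-inv. Slco1c1, a thyroid hormone transporter, measured 2350 and 2230 in SC, below 3455 and 3332 in PBS and 2914 and 3413 in N-inv. Limma called 0 of the 44 in each of these comparisons.

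Of 25 listed genes of reactive astrocytes 19 were tested. In N-inv against PBS 16 were higher, or 84.2%, where 7571 of 12626 genes were, with a median of 0.30. At an unadjusted p under 0.05 stood 8 of the 19, where 3.33% of all genes did, and limma called 0. In N-inv against SC 13 were higher, with a median of 0.17 and 5 at such a p, against 8.16% of all genes. In SC against PBS 12 were higher, with a median of 0.22 and 6 at such a p, against 6.73% of all genes, and limma called 0 in both. Both medians turned with the SC array left out: that against SC was -0.15 without replicate 1 and 0.31 without replicate 2, and that of SC against PBS was 0.52 and -0.03. The difference between these medians and those of the 33 genes was not tested. With the filter at the 60th percentile 14 reactive genes were tested. Of these, 8 in N-inv against PBS, 5 in N-inv against SC and 3 in SC against PBS had such a p. Over all genes these shares were 3.01%, 9.51% and 7.56%. Timp1, counted in SC against PBS under the main filter, measured 142.2 and 140.6 in PBS, below the cutoff of 155.2. Gfap measured 20480 and 19170 in the N-inv arrays, 6653 and 7913 in PBS, and 4632 and 15350 in SC, the SC arrays again far apart. Socs3, a feedback inhibitor of STAT signalling, measured 986.6 and 732.5 in the N-inv arrays, 333.9 and 347.0 in PBS, and 568.0 and 990.9 in SC. Aspg, an asparaginase, measured 777.8 and 655.6 in the N-inv arrays, 248.9 and 297.2 in PBS, and 264.6 and 508.5 in SC. Serpina3n, a protease inhibitor, measured 3822 and 3369 in the N-inv arrays, 1286 and 1393 in PBS, and 1249 and 2743 in SC. Lcn2, an iron carrier, measured 217.3 and 135.0 in PBS, 734.9 and 2526 in SC, and 795.9 and 853.1 with N-inv. Its value in PBS replicate 2 lay below that cutoff. Emp1, an epithelial membrane protein, measured 232.0 and 253.3 in SC, below 382.1 and 481.3 in PBS and 400.9 and 459.3 in N-inv.

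Markers of other cells are given here as sums over each list. The summed intensity of 18 microglia markers, of which 16 were above the filter, was 57220 and 50580 in the N-inv arrays, 34860 and 35200 in PBS, and 30050 and 38480 in SC. Tmem119, a marker of microglia, measured 877.4 and 952.8 in the N-inv arrays, 518.4 and 783.3 in PBS, and 619.6 and 480.3 in SC. The sum of 13 oligodendrocyte and myelin markers was 242600 and 234500 in SC, below 251200 to 268300 in the other groups. Mbp and Mobp, which make up much of that sum, were not lower in SC, but 11 of the 13 were lower than in PBS. An unadjusted p under 0.05 was found for 6 of the 13, against 6.73% of all genes. The median log2 difference of the 13 was -0.57. That median stands beside -0.53 for the transporters in the same comparison. Sums of 15 neuron markers lay between 265100 and 316900, with SC replicate 1 lowest and SC replicate 2 highest. The sum of 9 ependymal markers was 1613 and 1850 in the N-inv arrays, below 2119 and 2261 in PBS and 2192 and 2105 in SC. Of 5 tested, 3 were lower in N-inv than in PBS at an unadjusted p under 0.05, against 3.33% of all genes in either direction. The median of the 5 was -0.51. The sums of 9 meningeal, 11 vascular, 7 precursor and 5 Schwann cell markers were 27400 to 35080, 19290 to 26580, 28470 to 32410 and 28790 to 35760 over the 6 arrays. The part of these shifts in the astrocyte values was not tested. The sum over the 33 homeostatic genes was 501400 and 507300 in the N-inv arrays, 445000 and 467900 in PBS, and 421000 and 509000 in SC.

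**Figure D4:**
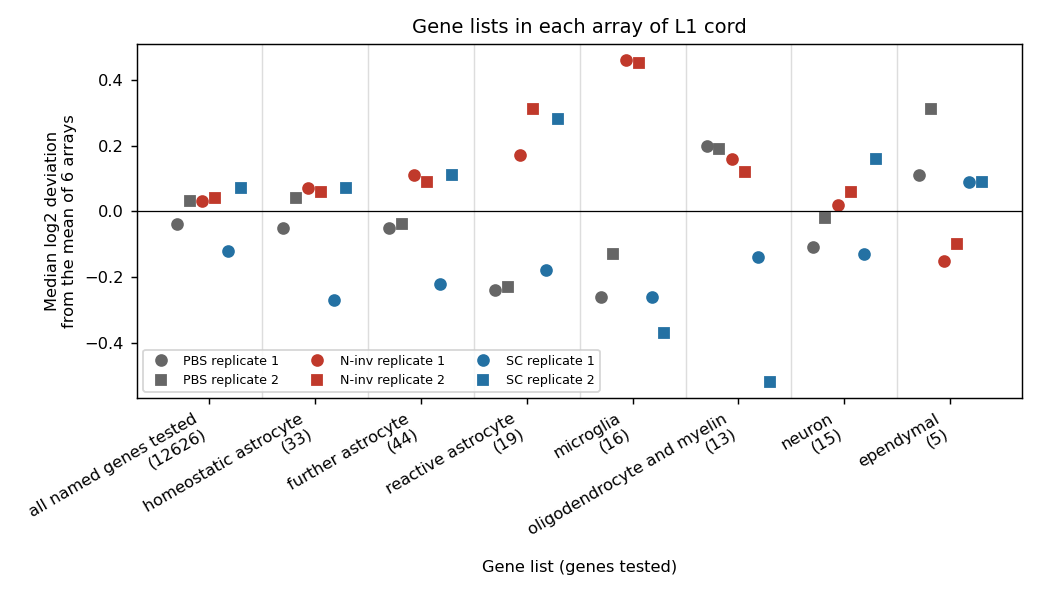
For each gene list, the median over its tested genes of log2(intensity + 25.6) minus the gene's mean over 6 arrays is plotted for each array, with circles for replicate 1 and squares for replicate 2. The homeostatic list spans -0.27 (SC replicate 1) to 0.07 and all genes span -0.12 (SC replicate 1) to 0.07, while reactive astrocyte and microglia lists place both N-inv arrays above both PBS arrays by wider margins.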

How the data were processed

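The 6 arrays of L1 cord came as 1 table of 45101 probe sets. It holds deposited intensities on a linear scale, made by the authors on an Affymetrix 3' array from 100 ng of RNA by two-cycle labelling, per the labels' protocols. The 2% trimmed mean of each array was 1000, so they had been scaled before deposit. The probe summary method was not given in the sources used here. After 64 control probe sets were set aside, 45037 remained: 34945 had 1 gene symbol, 932 several (not named) and 9160 none. Symbols were updated through the RefSeq table of GRCm38.p6 by gene ID.

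Arrays were multiplied to 1 shared median, 255.8. The log2 of intensity plus 25.6 was analysed, which understates differences of dim genes. Probe sets with a mean above the 40th percentile (155.2) were kept, 27022 in all, for 12626 named genes by their brightest probe set. A gene whose brightest probe set failed the filter was not tested.

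Differences were tested two-sided with limma 3.58.1 in R 4.3.3 (lmFit, eBayes) in 1 model over 6 arrays with a mean per group. The residual degrees of freedom were 3 and the prior's 3.59. P-values were adjusted by Benjamini-Hochberg over every tested probe set, separately for the 3 comparisons, with 0.05 as threshold. With 2 arrays against 2 the smallest two-sided p of an exact permutation test is 0.333, so none was run. Gene lists are described by counts and medians without a test. Scripts were tested on simulated data.

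The 33 genes and the other lists were chosen with earlier results of these data known. Named with values in every array were 7 core genes, the 5 members with the smallest p in each comparison, members with both N-inv arrays on one side of the other 4, and from the other astrocyte lists the 3 genes with the smallest p. Members beyond this rule, and second probe sets, were named after their values were seen. Levels of different genes are not compared, since probe sets differ in brightness. For arrays their number limits the precision. The alternatives were 2 other pseudocounts, 2 other filters, 2 other scalings, an intensity trend, only the groups compared, a replicate block, the mean of a gene's probe sets, and leaving out each array.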

Additional observations from a re-analysis of the deposited data

Results flagged for a closer look

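In 4 of the 33 genes both N-inv arrays lay above both PBS arrays while both SC arrays lay below them, where 3.51% of all genes did so. They were Aqp4, Atp1b2, Mlc1 and Ntsr2, whose log2 differences between N-inv and SC were 0.55, 0.44, 0.59 and 0.57. Their adjusted p in limma for that difference was 0.487, 0.507, 0.464 and 0.473, so none passed the threshold. N-inv and SC were set against the same PBS arrays. With quantile normalization 3 genes kept this order, and Aqp4 did not. As deposited, 5 genes had it, these 4 and Slc14a1. The summed microglia markers were highest in N-inv. The SC arrays had the highest 3' to 5' ratios of Actb and, in SC replicate 2 only just, of Gapdh. The part of these markers or ratios in this pattern was not tested.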

How the results depend on the processing

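Limma called 0 probe sets in each comparison, with 1089, 2406 and 2129 of 27022 at an unadjusted p under 0.05 for N-inv with PBS, N-inv with SC and SC with PBS. With an intensity trend 1 (Depp1) was called in N-inv against PBS and 2 (Serpinb1a and Depp1) in N-inv against SC, and with only the groups compared 1 (Sprr1a) in N-inv against PBS. Leaving out each array in turn gave 0 to 1, 0 to 2 and 0 to 10 calls, the highest counts all without SC replicate 1, and no call under any alternative was one of the 33 genes. Without SC replicate 2 Sprr1a was again the 1 call in N-inv against PBS.

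The median log2 difference of the 33 genes ranged from 0.06 to 0.09 in N-inv against PBS when each array was left out, from -0.04 to 0.32 in N-inv against SC and from -0.28 to 0.10 in SC against PBS. Both wide ranges came from leaving out SC replicate 1 or SC replicate 2. Over all genes the medians moved too, to -0.04 and 0.15 in N-inv against SC and to 0.08 and -0.11 in SC against PBS. The deposited array median was highest in SC replicate 1 (279.2) and lowest in SC replicate 2 (241.7), before scaling to 255.8. The part of the scaling in these ranges was not tested, nor was any other cause. Under the other alternatives the medians stayed within 0.02 to 0.08, 0.06 to 0.12 and -0.14 to -0.06. Only the pseudocounts, the scalings and the mean of a gene's probe sets could move them. The rest leave the differences of the 33 genes unchanged by construction. All 315 recomputed values of single genes kept their direction and none was called. They came only from members picked for a small p or for N-inv arrays wholly above or below all others. In each, the arrays of the compared groups did not overlap, so another pseudocount or leaving out an array could not reverse the direction. The filters, the trend, the groups compared and the block could not change these differences. The kept direction therefore tests only the scalings. Replicate numbers did not pair the arrays, since deviations of equally numbered arrays correlated at 0.0103, 0.0373 and -0.0322. With a replicate block 0 probe sets were called in each comparison. Each group holds 1 array of each replicate number, so the block could not change the median of 0.08 in N-inv against PBS. Signal over background was not judged, as the table gives no detection calls.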
